A study of Mus musculus with 8 samples.

Results

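The genes described here are 45 genes of the lysosome and of phagocytic degradation, out of 18193 genes tested. They were chosen by symbol: every probe set whose single symbol in the platform annotation was on the list was taken, and where a gene had several, the brightest on average across the 8 arrays stood for it. The list itself was chosen with earlier results of these data known. All 45 were found. They comprise 10 lysosomal proteases, 14 enzymes of glycan breakdown, 6 proteins of lipid breakdown, 6 lysosomal membrane proteins, 3 phagocyte membrane and pore proteins, 3 transcription factors, 2 lysozymes and progranulin.

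Expression was profiled in 4 L-GMP samples, taken from mice with leukaemia and carrying the genotype label HoxA9+Meis1 AML, and in 4 GMP samples of normal mouse bone marrow. GMP is the common short name of the granulocyte-macrophage progenitor. Cells of both groups were sorted by flow cytometry, and each sample was hybridised to 1 Affymetrix array. The strain, age and sex of the mice, the way the leukaemia was made, the sort gates and the number of mice behind each sample are not given in the sources used here. Replicates A to D of a group are not stated to be separate animals, so the spread behind the p-values may be a technical one. The number of arrays limits the precision. L-GMP B stood apart on the second principal component of all genes tested (11.4% of the variance), at -36.9, against 2.34 to 15.8 for the other L-GMPs. Without it, 18 of the 45 genes were called higher, against 17 with all arrays. Levels below are log2 of the deposited intensities, and the lower quartile of an array lay at 3.65 to 3.75 on that scale.

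Lysosomes are acidic organelles in which hydrolases break down proteins, glycans and lipids that arrive by endocytosis, phagocytosis and autophagy. Phagocytes are rich in them, and their content of cathepsins, lysozyme and pore-forming proteins grows as monocytes and macrophages mature. The MiT/TFE transcription factors (TFEB, TFE3 and MITF) bind E-boxes with the letters CACGTG, among them the longer palindrome TCACGTGA, in promoters of many lysosomal genes.

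More of the lysosomal and phagocyte genes were higher than lower in L-GMPs, by unequal amounts. The test (limma, Benjamini-Hochberg adjustment over all 18193 genes at 0.05) called 17 of the 45 genes higher and 2 lower, and 26 did not pass. Over all genes tested, 4.78% were called higher and 7.27% lower. The median change of the 45 genes was 0.32 on the log2 scale (L-GMP minus GMP), and 37 of the 45 changes were positive. The median change of all genes tested was 0.01. The levels of L-GMPs lay entirely above those of GMPs for 22 of the 45 genes, which was so for 8.53% of all genes tested, and entirely below for 4, against 9.71% of all genes. These comparisons with all genes are descriptions and not independent tests, because the 45 genes were chosen with earlier results of these data known. Increases of the 17 genes ran from 0.41 to 3.93, with 6 at least 2-fold higher in linear terms and 11 higher by less. The phagocyte proteins had a median change of 2.48, the lysozymes 0.61, the proteases 0.39, the glycan enzymes 0.28, the membrane proteins 0.22 and the lipid enzymes 0.08.

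**Figure D1:**
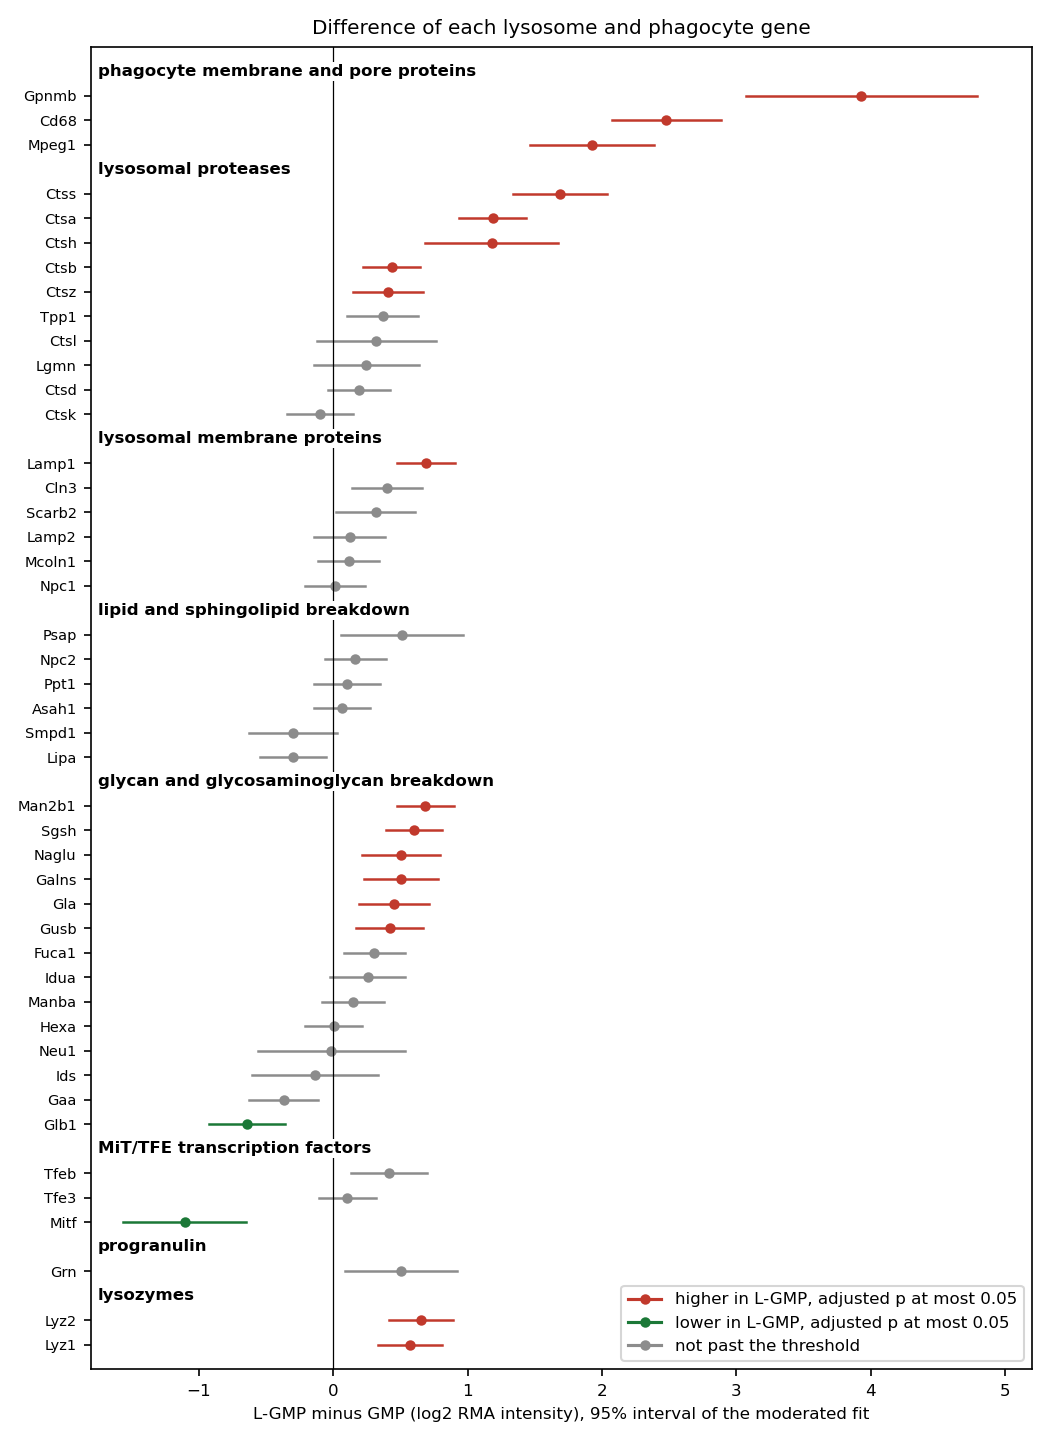
Difference in log2 intensity (L-GMP minus GMP) of the 45 genes, grouped by role, with 95% confidence intervals from the limma fit on 4 arrays per group. The phagocyte proteins lie far to the right, between 1.93 and 3.93, most enzymes lie between -0.64 and 0.69, and Mitf lies at -1.11.

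The shift of the list was present on each L-GMP array. Relative to the mean of the 4 GMP arrays, the median gene of the 45 stood at 0.36, 0.27, 0.33 and 0.28 on L-GMP arrays A to D, and between -0.03 and 0.06 on GMP arrays. Each GMP array is part of that mean, which draws the GMP values toward 0. The median of all genes stayed between -0.02 and 0.02 on every array. Among the 17 genes called higher, array A had the highest L-GMP value for 11 and array C for the other 6, whereas array B was lowest for 8, array D for 7 and array C for 2. The SD was larger in L-GMPs for 53.3% of the 45 genes and for 51.5% of all genes tested.

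**Figure D2:**
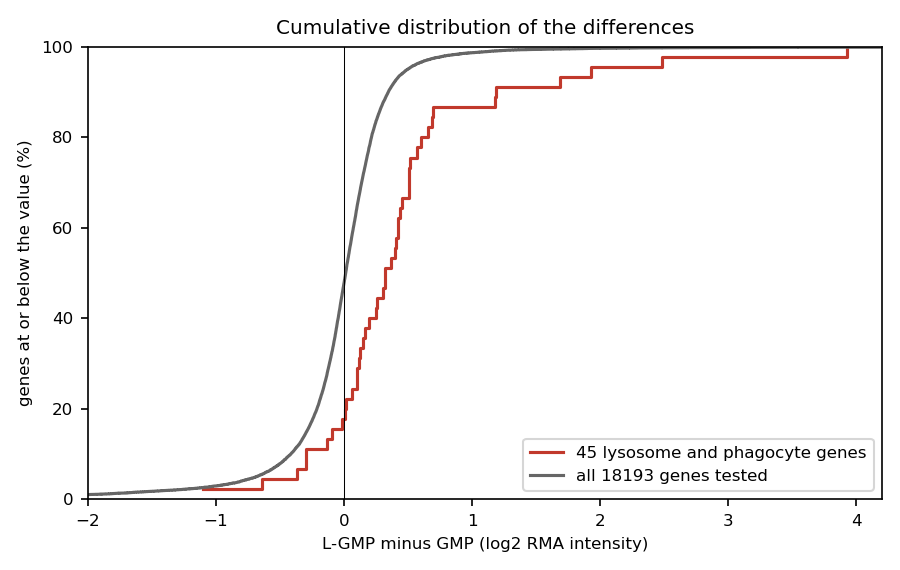
Cumulative share of genes (vertical axis) by difference in log2 intensity, L-GMP minus GMP (horizontal axis), for the 45 lysosomal and phagocyte genes and for all 18193 genes tested. The curve of the 45 genes is displaced to the right, with its median at 0.32 against 0.01 for all genes.

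The phagocyte membrane and pore proteins changed most, and all 3 rose. Cd68, a heavily glycosylated protein of macrophage endosomes and lysosomes, had log2 intensities of 9.76, 9.58, 9.06 and 8.87 in L-GMPs A to D, against 6.70, 6.88, 6.87 and 6.89 in GMPs A to D. Every L-GMP array lay above every GMP array, and L-GMPs A and B were the highest. Cd68 averaged 9.31 ± 0.42 in L-GMPs and 6.84 ± 0.09 in GMPs (SD, n = 4 each), and rose by 2.48 (SE 0.18, 5.58-fold, limma adjusted p = 9.92e-06).

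Gpnmb, a transmembrane glycoprotein of macrophages and pigment cells, had log2 intensities of 10.07, 8.77, 9.51 and 8.45 in L-GMPs and 4.38, 5.82, 5.81 and 5.07 in GMPs. The groups lay far apart, and the 4 values within each group were widely spread, with an SD of 0.73 in L-GMPs and 0.69 in GMPs. The rise of 3.93 (SE 0.39, 15.2-fold, limma adjusted p = 8.87e-05) was the largest of the 45 genes. A second Gpnmb probe set rose by 2.85.

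Mpeg1 encodes perforin-2, a pore-forming protein directed at engulfed bacteria. Its log2 intensities were 11.06, 10.40, 11.38 and 11.32 in L-GMPs and 8.78, 9.26, 9.21 and 9.22 in GMPs. L-GMP B was the lowest of the L-GMPs and still lay above all GMPs. Mpeg1 rose by 1.93 (SE 0.21, 3.8-fold, limma adjusted p = 0.000168).

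**Figure D3:**
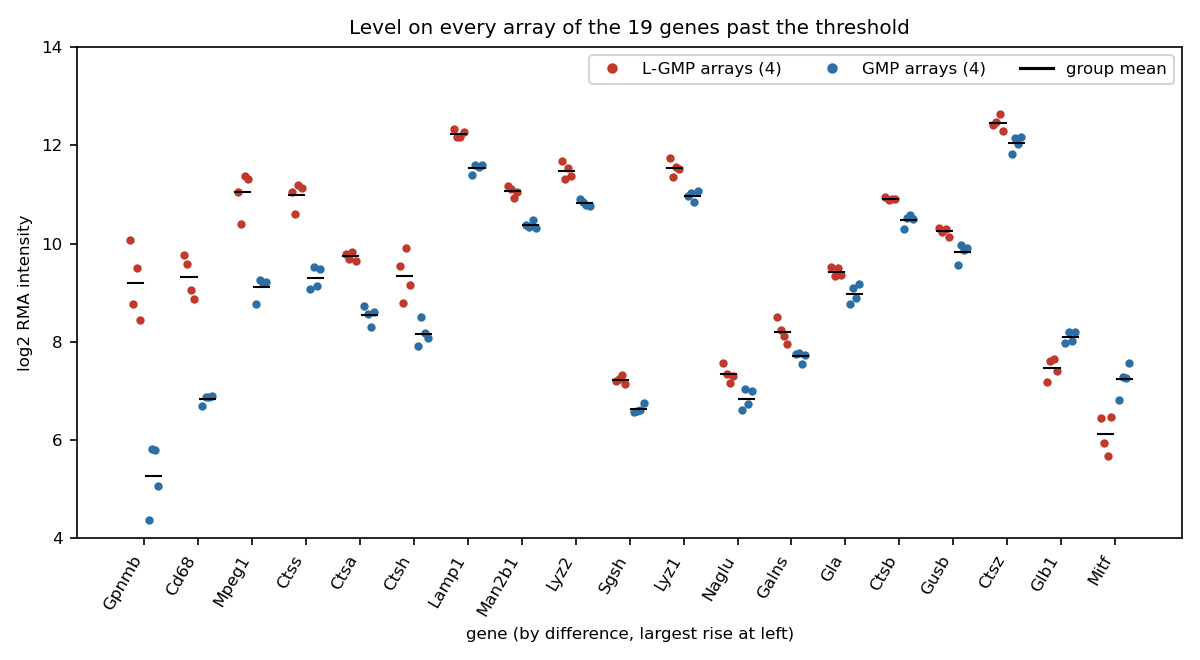
Log2 intensity on each array (points, L-GMP left of GMP within each gene) for the 19 genes past the threshold, with group means as short lines. No L-GMP point overlaps the GMP points of the same gene, and the gap is widest for Gpnmb, Cd68, Mpeg1 and Ctss. The genes were picked by the test on these same arrays, which favours such separation.

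Of the 10 lysosomal proteases, 5 rose, none fell (0 also at an unadjusted p under 0.05) and 5 did not pass the test. Ctss, the cathepsin that trims the invariant chain of MHC class II, had log2 intensities of 11.04, 10.60, 11.18 and 11.13 in L-GMPs, against 9.07, 9.53, 9.13 and 9.48 in GMPs. The groups did not overlap, and L-GMP B was the lowest of the L-GMPs. Ctss rose by 1.69 (SE 0.16, 3.22-fold, limma adjusted p = 5.99e-05).

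Ctsa, a serine carboxypeptidase that also shields β-galactosidase and neuraminidase 1 in a shared complex, had 9.79, 9.69, 9.83 and 9.64 in L-GMPs and 8.73, 8.56, 8.31 and 8.61 in GMPs. The L-GMP values were tightly grouped, with an SD of 0.09. Ctsa rose by 1.19 (SE 0.11, 2.27-fold, limma adjusted p = 6.57e-05). Ctsh, an aminopeptidase, had 9.55, 8.79, 9.91 and 9.15 in L-GMPs and 7.91, 8.51, 8.17 and 8.08 in GMPs. L-GMP B came closest to the GMPs, and the groups did not overlap. Ctsh rose by 1.18 (SE 0.22, 2.27-fold, limma adjusted p = 0.00663).

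The promoter of Ctsa holds an E-box just before the annotated start and another just after it, and the first is shown because Ctsa had the larger increase of the called genes with the longer palindrome. Sequences here and below are from RefSeq on GRCm38.p6, 5′ to 3′ on the strand of the gene, with each CACGTG in capitals. The Ctsa stretch is chr2:164833749-164833772 on the plus strand, and Ctsd, which did not pass the test, has 2 E-boxes on the minus strand of chromosome 7, at chr7:142388055-142388077 and chr7:142387908-142387937.
Ctsa: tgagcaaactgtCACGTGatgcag
Ctsd, distal: tccccCACGTGacctgtatccag
Ctsd, proximal: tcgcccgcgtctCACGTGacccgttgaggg

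The other 2 proteases that rose did so by smaller amounts. Ctsb, a broadly expressed cysteine cathepsin, had 10.95, 10.88, 10.91 and 10.90 in L-GMPs and 10.31, 10.52, 10.59 and 10.49 in GMPs. Its rise of 0.44 (SE 0.10, 1.35-fold, limma adjusted p = 0.0145) went with a narrow spread in L-GMPs. Ctsz, a carboxypeptidase, had 12.42, 12.48, 12.63 and 12.29 in L-GMPs and 11.82, 12.15, 12.03 and 12.17 in GMPs. It rose by 0.41 (SE 0.12, limma adjusted p = 0.0457), the highest p of the called genes, and lost the call under 11 of 16 alternatives, among them the removal of any single array but L-GMP D. The other 2 Ctsz probe sets rose by 0.59 and 0.54 without overlap (limma adjusted p = 0.0036 and 0.0055 over all probe sets).

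Ctsd, the aspartic protease cathepsin D, had 9.51, 9.59, 9.64 and 9.41 in L-GMPs and 9.51, 9.35, 9.19 and 9.33 in GMPs. Its difference was 0.19 (95% confidence interval -0.04 to 0.42, limma adjusted p = 0.276). Ctsl, a cysteine cathepsin, had a difference of 0.32 (interval -0.12 to 0.76, adjusted p = 0.345), and its groups overlapped. Tpp1, a tripeptidyl peptidase, had 8.33, 8.42, 8.18 and 8.48 in L-GMPs and 8.14, 7.99, 7.73 and 8.08 in GMPs, without overlap. Its difference of 0.37 did not pass the test (interval 0.11 to 0.63, limma adjusted p = 0.0718). A second Tpp1 probe set of similar brightness averaged 8.19 in L-GMPs and 8.11 in GMPs. It differed by 0.085, with overlap (limma adjusted p = 0.796 over all probe sets). Ctsk, the collagen-degrading cathepsin of osteoclasts, and Lgmn, an asparaginyl endopeptidase, had group means below the lower quartile of every array, with differences of -0.10 (adjusted p = 0.627) and 0.25 (adjusted p = 0.417).

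Of the 6 lysosomal membrane proteins, 1 rose and 5 did not pass. Lamp1, an abundant glycoprotein of the lysosomal membrane, had log2 intensities of 12.33, 12.16, 12.17 and 12.26 in L-GMPs, against 11.39, 11.60, 11.56 and 11.61 in GMPs. All L-GMP values exceeded all GMP values by more than the range within either group. Lamp1 rose by 0.69 (SE 0.10, 1.61-fold, limma adjusted p = 0.00107). Lamp2, its paralogue with a role in autophagosome fusion, had 10.96, 11.04, 10.93 and 10.73 in L-GMPs and 11.04, 10.71, 10.61 and 10.80 in GMPs. These overlapped, with a difference of 0.12 (interval -0.14 to 0.39, adjusted p = 0.556). The difference between Lamp1 and Lamp2 in their response was not tested.

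The Lamp1 promoter holds 4 E-boxes within 73 bases before the start and is shown for that density, beside the promoters of Cln3 and Mcoln1, each with 2, which did not pass the test. The regions are chr8:13159088-13159160 (plus strand), chr7:126583340-126583397 (minus strand) and chr8:3500436-3500491 (plus strand).
Lamp1: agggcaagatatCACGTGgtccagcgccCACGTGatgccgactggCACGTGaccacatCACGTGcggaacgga
Cln3: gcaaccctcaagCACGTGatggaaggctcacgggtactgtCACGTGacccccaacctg
Mcoln1: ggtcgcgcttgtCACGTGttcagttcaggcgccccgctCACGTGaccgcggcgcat

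Cln3, a membrane protein of the lysosome mutated in a childhood neuronal ceroid lipofuscinosis, had 6.64, 6.92, 6.51 and 6.49 in L-GMPs and 6.27, 6.25, 6.33 and 6.12 in GMPs. The groups did not overlap, and the difference of 0.40 (SE 0.12) was the closest to the threshold of those that missed it (limma adjusted p = 0.0511). Mcoln1, the calcium channel TRPML1, had 7.08, 7.22, 6.93 and 6.93 in L-GMPs and 7.02, 6.91, 6.92 and 6.85 in GMPs, a difference of 0.12 (adjusted p = 0.514). Scarb2, which carries glucocerebrosidase to lysosomes, had 9.51, 9.14, 9.76 and 9.47 in L-GMPs and 9.04, 9.21, 9.14 and 9.22 in GMPs. L-GMP B lay within the GMP range, and the difference was 0.32 (interval 0.02 to 0.61, adjusted p = 0.156). Without L-GMP B it passed, at 0.43 (adjusted p = 0.0376). A dimmer Scarb2 probe set differed by -0.28. Npc1, a membrane protein of cholesterol export, ranged over 8.04 to 8.16 in L-GMPs and 7.95 to 8.26 in GMPs, with a difference of 0.01 (interval -0.21 to 0.24).

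None of the 6 proteins of lipid and sphingolipid breakdown passed the test in limma, and at an unadjusted p under 0.05 there was 1 higher (Psap) and 1 lower (Lipa). Psap, the precursor of the saposin activators, had 9.61, 8.90, 9.92 and 9.70 in L-GMPs and 9.20, 8.87, 9.23 and 8.79 in GMPs. L-GMP B lay among the GMPs while the other L-GMPs lay above them, with a difference of 0.51 (SE 0.20, interval 0.06 to 0.96, limma adjusted p = 0.139). Without L-GMP B, the difference was 0.72 and passed the test (adjusted p = 0.00948). A dimmer Psap probe set differed by 0.12, with overlap (limma adjusted p = 0.708 over all probe sets). Lipa, the acid lipase, ran the other way, with 9.04, 9.04, 8.78 and 8.85 in L-GMPs and 9.43, 9.20, 9.14 and 9.14 in GMPs. All L-GMP values lay below all GMP values, with a difference of -0.30 (interval -0.55 to -0.05, adjusted p = 0.112). Smpd1, the acid sphingomyelinase, also had a difference of -0.30 (interval -0.62 to 0.03). The differences of Npc2, a cholesterol carrier of the lysosome lumen, Ppt1, which removes palmitate from proteins, and Asah1, the acid ceramidase, were 0.17, 0.10 and 0.07.

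Of the 14 enzymes of glycan and glycosaminoglycan breakdown, 6 rose, 1 fell and 7 did not pass. Increases were all below 2-fold. Man2b1, the lysosomal α-mannosidase, had 11.17, 11.11, 10.92 and 11.04 in L-GMPs, against 10.37, 10.34, 10.47 and 10.32 in GMPs. The spread within each group was small beside the gap between them. Man2b1 rose by 0.68 (SE 0.10, 1.61-fold, limma adjusted p = 0.00107).

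Sgsh and Naglu act in the stepwise breakdown of heparan sulfate, Sgsh as sulfamidase and Naglu as α-N-acetylglucosaminidase. Sgsh had 7.21, 7.24, 7.33 and 7.14 in L-GMPs and 6.58, 6.59, 6.61 and 6.75 in GMPs. It rose by 0.60 (SE 0.09, 1.52-fold, limma adjusted p = 0.00215). Naglu had 7.57, 7.34, 7.17 and 7.31 in L-GMPs and 6.60, 7.03, 6.74 and 6.99 in GMPs, and rose by 0.51 (SE 0.13, 1.42-fold, adjusted p = 0.0302). Hgsnat, the acetyltransferase of the same pathway, is outside the 45 genes and was picked after its values were seen. It had 8.47, 8.57, 8.01 and 8.30 in L-GMPs and 7.18, 7.20, 7.11 and 7.50 in GMPs, and rose by 1.09 (2.13-fold, limma adjusted p = 0.000624). Idua and Ids, the iduronidase and iduronate sulfatase that also act on heparan sulfate, had differences of 0.26 (adjusted p = 0.231) and -0.14 (adjusted p = 0.74).

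Gusb, the β-glucuronidase, had 10.32, 10.24, 10.30 and 10.13 in L-GMPs and 9.57, 9.96, 9.87 and 9.92 in GMPs, a rise of 0.42 (limma adjusted p = 0.0351). Galns, a sulfatase of keratan and chondroitin sulfate, had 8.50, 8.25, 8.12 and 7.96 in L-GMPs and 7.75, 7.78, 7.56 and 7.73 in GMPs, a rise of 0.51 (adjusted p = 0.0257). Gla, the α-galactosidase lacking in Fabry disease, had 9.53, 9.33, 9.51 and 9.36 in L-GMPs and 8.76, 9.10, 8.89 and 9.18 in GMPs, a rise of 0.45 (adjusted p = 0.0308; 0.27 with the mean of its probe sets). In all 3 the groups were apart by less than the range of 1 of them, and each lost the call under some alternatives: Gusb under 10, Gla under 7 and Galns under 6 of 16. With the mean of all its probe sets, the Galns difference was 0.20 (adjusted p = 0.161). The removal of L-GMP A or GMP C was among them for each of the 3, as it was for Naglu.

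Glb1, the β-galactosidase that the Ctsa product stabilises, fell. It had 7.17, 7.62, 7.66 and 7.40 in L-GMPs and 7.98, 8.20, 8.02 and 8.21 in GMPs. All L-GMP values lay below all GMP values, and Glb1 fell by 0.64 on the log2 scale (SE 0.13, 1.56-fold lower, limma adjusted p = 0.0088). Neu1, the neuraminidase of that complex, had 7.09, 7.46, 6.40 and 6.13 in L-GMPs and 6.76, 6.80, 6.74 and 6.85 in GMPs. L-GMPs A and B lay above the GMPs and L-GMPs C and D below them, so the SD was 0.61 in L-GMPs and 0.05 in GMPs. The mean difference was -0.01 (interval -0.56 to 0.53, limma adjusted p = 0.979). This split belongs to that probe set. A slightly dimmer Neu1 probe set had 6.89, 6.12, 6.94 and 6.07 in L-GMPs and 6.23, 6.49, 6.37 and 6.83 in GMPs. There L-GMPs A and C lay above the GMPs and L-GMPs B and D below them. Its SD was 0.47 in L-GMPs and 0.26 in GMPs, and its difference was 0.02.

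The E-boxes of the called glycan enzymes are shown because the promoters of a gene that fell and of genes that rose carry the same hexamer. The regions are chr11:119355522-119355551 for Sgsh (minus strand), chr11:101070009-101070038 for Naglu (plus), chrX:134601182-134601244 for Gla (minus) and chr9:114401018-114401047 for Glb1 (plus).
Sgsh: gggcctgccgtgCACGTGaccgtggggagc
Naglu: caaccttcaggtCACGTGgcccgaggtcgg
Gla: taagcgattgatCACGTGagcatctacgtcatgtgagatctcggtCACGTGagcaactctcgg
Glb1: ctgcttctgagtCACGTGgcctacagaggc

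Gaa, the acid α-glucosidase that degrades glycogen, had 7.56, 7.92, 7.98 and 7.89 in L-GMPs and 8.32, 8.13, 8.14 and 8.23 in GMPs. The L-GMPs lay below the GMPs without overlap, and the difference of -0.37 (SE 0.12) did not pass the test (limma adjusted p = 0.065). Fuca1, the α-fucosidase, had 9.72, 9.67, 9.83 and 9.84 in L-GMPs and 9.27, 9.47, 9.54 and 9.55 in GMPs, a difference of 0.31 (adjusted p = 0.0786). Manba, the β-mannosidase, differed by 0.15 without overlap (adjusted p = 0.405). Hexa, the α subunit of β-hexosaminidase, had 12.13, 12.15, 12.25 and 12.07 in L-GMPs and 12.05, 12.22, 12.23 and 12.07 in GMPs. Its difference was 0.00, with an interval of -0.21 to 0.22.

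Of the 3 MiT/TFE transcription factors, 1 fell and the others did not pass the test. Mitf, which is needed for mast cells and pigment cells, fell, with 6.45, 5.94, 5.68 and 6.46 in L-GMPs and 6.81, 7.29, 7.27 and 7.58 in GMPs. The groups did not overlap, and Mitf fell by 1.11 on the log2 scale (SE 0.21, 2.15-fold lower, limma adjusted p = 0.0063). A dimmer Mitf probe set fell by 0.57 (adjusted p = 0.027 over all probe sets). Of 9 markers of eosinophils, basophils and mast cells, 7 fell as well, against 7.27% called lower over all genes tested. The summed linear intensities of the 9 were 643.5 to 1531 in L-GMPs and 4459 to 11007.5 in GMPs. The granule protein genes Prg2 and Epx and the IgE receptor gene Ms4a2 had differences of -5.20, -4.77 and -4.95, and the brightest, the basophil protease gene Mcpt8, -0.46 (limma adjusted p = 0.253). Whether these cells take part in the Mitf result was not tested.

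Tfeb, named as a master regulator of lysosomal genes, had 6.89, 6.46, 6.97 and 6.59 in L-GMPs and 6.29, 6.40, 6.23 and 6.34 in GMPs. All L-GMPs lay above all GMPs, and the difference of 0.42 (SE 0.13, interval 0.14 to 0.70) did not pass the test (limma adjusted p = 0.0593). It passed under some alternatives, such as without L-GMP B, at 0.51 (adjusted p = 0.023). Tfe3 had 7.50, 7.49, 7.60 and 7.61 in L-GMPs and 7.47, 7.49, 7.29 and 7.52 in GMPs, a difference of 0.10 (interval -0.11 to 0.32, adjusted p = 0.533). The activity of these factors depends on their entry into the nucleus, which arrays do not measure.

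Of progranulin and the lysozymes, products of myeloid cells, both lysozymes rose and progranulin did not pass. Grn, the progranulin gene, had 12.91, 12.51, 13.17 and 12.51 in L-GMPs and 12.66, 12.08, 11.98 and 12.35 in GMPs. The groups overlapped, and the difference of 0.50 (SE 0.19, interval 0.09 to 0.92) did not pass the test (limma adjusted p = 0.113). Without GMP A, the highest of the GMPs, it passed at 0.63 (adjusted p = 0.0474). The other 2 Grn probe sets rose, by 0.53 (adjusted p = 0.011) and 0.58 (adjusted p = 0.030) over all probe sets. Lyz2, the lysozyme of macrophages and granulocytes, had 11.68, 11.32, 11.54 and 11.38 in L-GMPs and 10.90, 10.85, 10.79 and 10.76 in GMPs. Lyz2 rose by 0.66 (SE 0.11, 1.58-fold, limma adjusted p = 0.00283). Lyz1 had 11.73, 11.36, 11.56 and 11.53 in L-GMPs and 10.97, 11.02, 10.85 and 11.06 in GMPs, and rose by 0.57 (SE 0.11, 1.49-fold, adjusted p = 0.00645). Lyz1 and Lyz2 are near-identical paralogues and the bright Lyz1 probe sets are of a type whose probes can bind related transcripts, so the split of the signal between the 2 genes is uncertain. The dimmest Lyz1 probe set averaged 3.99 in L-GMPs and 3.66 in GMPs (adjusted p = 0.083).

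The 45 genes have 97 probe sets in all. Over all probe sets, 30 of these were called higher and 3 lower, where 3.89% of all probe sets were higher and 7.03% lower. Of the 12 called genes with several probe sets, 10 had every one in the called direction; the exceptions were Galns and Gla. Another probe set passed the test over all probe sets in 8 of them, namely Ctsa, Ctsb, Ctsh, Ctsz, Gpnmb, Gusb, Lyz1 and Mitf. For Ctsz, the probe set standing for the gene did not pass there (limma adjusted p = 0.0536). No gene had probe sets called in opposite directions. Of the uncalled genes, Ctsl, Fuca1, Grn and Ppt1 had another probe set that was called higher, by 0.69, 0.45, 0.53 to 0.58, and 0.51.

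**Figure D4:**
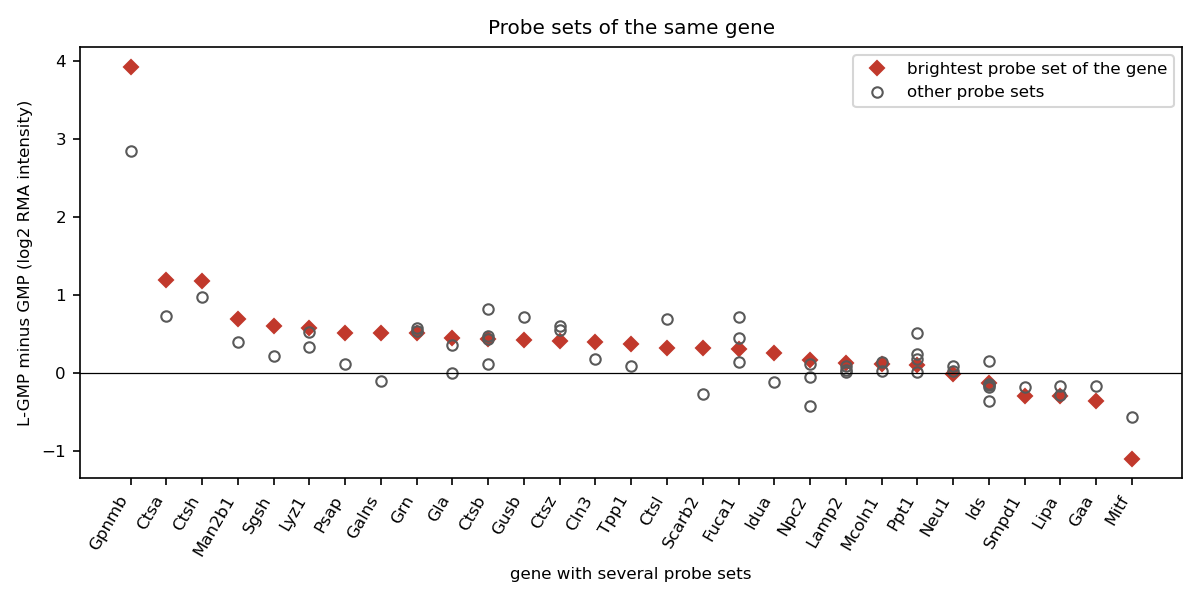
Difference in log2 intensity, L-GMP minus GMP, of every probe set of the 29 genes with more than 1 probe set, with the probe set standing for the gene marked apart from the others. For most genes the points lie on the same side of 0; Galns, Scarb2, Idua, Npc2 and Ids are among those with points on both sides.

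Across the list, CACGTG was present in the promoter window, 250 bases before to 50 after the start, of 12 of the 40 genes that matched a RefSeq promoter. These were Cln3, Ctsa, Ctsd, Ctsl, Gaa, Gla, Glb1, Lamp1, Lgmn, Mcoln1, Naglu and Sgsh, or 30% of the 40. The share was 10.2% of 14452 tested genes with a window and 8.09% of all 27025 genes with a window. Among the called-higher genes 5 of 14 held it, among the called-lower genes 1 of 2 and among the uncalled 6 of 24. TCACGTGA, which contains CACGTG, was present in 5 of the 40 (Cln3, Ctsa, Ctsd, Gla and Mcoln1), or 12.5%, against 1.63% of tested genes and 1.12% of all genes with a window. Both motifs are palindromes, so a single reading covers both strands. A match describes letters in a window and says nothing of binding.

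**Figure D5:**
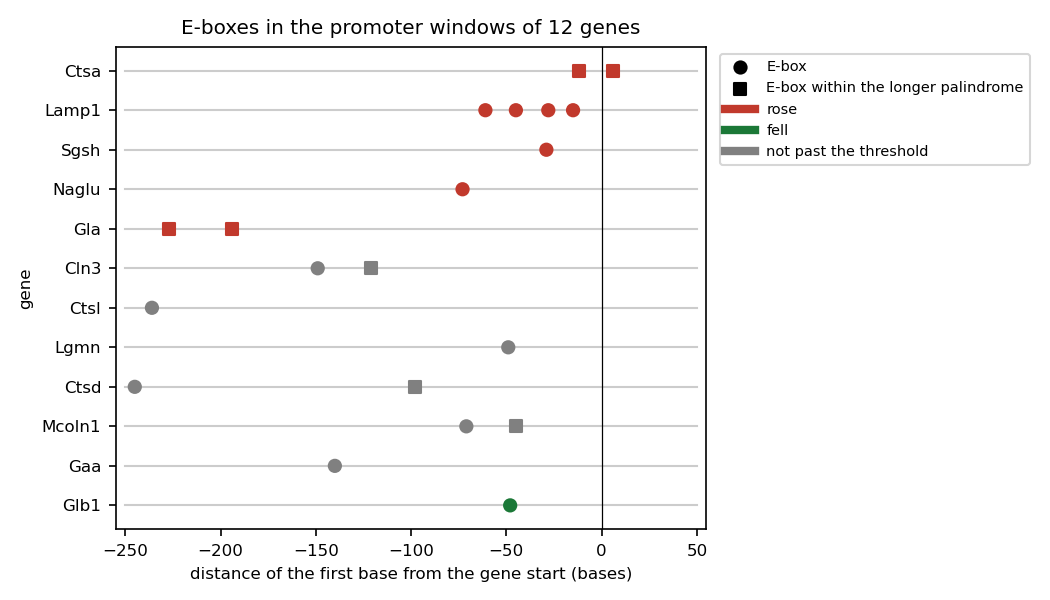
Positions of CACGTG relative to the annotated start (horizontal axis, in bases) in the promoter windows of the 12 genes that hold it, with matches to the longer TCACGTGA marked apart. Lamp1 has the most sites, and those of the other genes are spread over the window.

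Other genes of the same pathways were counted from lists set beside the 45 genes. Of 104 such genes analysed, 14 rose (13.5%) and 6 fell (5.77%), with a median change of 0.06, and most did not pass the test. Over all genes tested, 4.78% were called higher and 7.27% lower, and these shares apply to each list below. The shares called higher in the proton pump (6.25%), enzyme sorting (7.69%) and autophagy (6.67%) lists were near that of all genes. So was the share called lower in nutrient sensing (6.67%). In the proton pump of the lysosome, 1 of 16 subunits rose and 0 fell (3 and 2 at an unadjusted p under 0.05), with a median of 0.03: Atp6v1b2 rose by 0.53 (limma adjusted p = 0.00854), a call lost with the mean of its probe sets (0.46, adjusted p = 0.0509). Of 13 genes of enzyme sorting, 1 rose, Gga1, an adaptor that loads receptors at the Golgi, by 0.37 (adjusted p = 0.0373), a call lost on removing any single array but L-GMP D. Of 15 genes of nutrient sensing at the lysosome, 0 rose (2 at an unadjusted p under 0.05) and 1 fell, Fnip2, a partner of folliculin, by 0.49 on the log2 scale (adjusted p = 0.0103). Of 15 autophagy genes, 1 rose, the membrane protein gene Atg9a, by 0.94 (adjusted p = 0.00349), and the median was close to 0.

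Among 20 other hydrolases and their activators, 4 rose and 3 fell. Ifi30, the thiol reductase of antigen processing, had 10.58, 10.09, 10.18 and 9.95 in L-GMPs and 7.85, 8.13, 7.46 and 8.20 in GMPs. It rose by 2.29 (SE 0.18, 4.9-fold, limma adjusted p = 1.86e-05). Acp5, the tartrate-resistant acid phosphatase of osteoclasts and activated macrophages, had 4.81, 5.47, 4.45 and 4.86 in L-GMPs and 6.39, 6.95, 6.68 and 6.72 in GMPs, and fell by 1.79 on the log2 scale (SE 0.20, adjusted p = 0.000227). Arsb, a sulfatase of dermatan sulfate, had 7.97, 7.91, 7.46 and 7.69 in L-GMPs and 9.07, 9.06, 8.93 and 8.98 in GMPs, and fell by 1.25 on the log2 scale (SE 0.12, adjusted p = 8.89e-05). Besides Hgsnat, the genes Scpep1 (0.98) and Sumf1 (0.85), the activator of sulfatases, rose and Cpq (-0.49) fell; these were chosen after their values were seen, and the Cpq call was lost on removing any of 6 single arrays.

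In the phagocyte oxidase, 3 of 5 genes rose and none fell (0 also at an unadjusted p under 0.05). Cybb, the catalytic subunit, had 10.23, 9.99, 9.57 and 8.70 in L-GMPs and 7.90, 8.39, 8.24 and 8.56 in GMPs, and rose by 1.35 (SE 0.29, 2.55-fold, limma adjusted p = 0.0126). Cyba, its membrane partner, rose by 0.75 (adjusted p = 0.0121) and Ncf4, a cytosolic subunit, by 0.64 (adjusted p = 0.0179), a call lost without L-GMP C (adjusted p = 0.0507). Without L-GMP B and GMP D together, the calls of both Cyba (adjusted p = 0.0673) and Ncf4 (adjusted p = 0.0524) were lost. Of 15 other lysosomal membrane proteins, 3 rose and 2 fell, with Clcn7, a chloride-proton exchanger, up by 0.71 (adjusted p = 0.00768; 0.39 with the mean of its probe sets), Slc17a5, the sialic acid exporter, at -0.48 (adjusted p = 0.0407, lost on removing any single array but L-GMP D or GMP C) and Lmbrd1, of cobalamin transport, up by 0.47 (adjusted p = 0.0135). With the mean of its probe sets, Lmbrd1 differed by 0.057 and did not pass (adjusted p = 0.767). The other called genes, Slc29a3 (0.40) and Abca2 (-0.46), were chosen after their values were seen, and their calls were lost under some alternatives, the removal of L-GMP A among them. Of 5 cystatins and stefins, inhibitors of cathepsins, 1 rose, Cstb, by 0.57 (adjusted p = 0.00482).

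Markers of several cell types also differed between the groups, some higher and some lower in L-GMPs. Of 14 monocyte and macrophage markers, 3 rose and 2 fell, with a median change of 0.08. Their summed linear intensities were 5352 to 7364 in L-GMPs and 3449 to 3942 in GMPs, and such a sum mostly follows its brightest genes. F13a1, the transglutaminase of monocytes and the brightest of the 14, averaged 12.06 in L-GMPs and 10.49 in GMPs, and rose by 1.57. Csf1r, the next brightest and named after its values were seen, was at -0.24 (limma adjusted p = 0.692). Vcam1, of resident macrophages, fell by 1.66 on the log2 scale (limma adjusted p = 0.0073). Adgre1, the F4/80 antigen, rose by 1.56 (adjusted p = 0.0378); Ccr2 rose by 0.53 and Cx3cr1 fell by 0.75 on the log2 scale, both chosen after their values were seen. The calls of Adgre1, Ccr2 and Cx3cr1 were each lost on removing some single arrays, with L-GMPs A and C among them for all 3, and with the mean of its probe sets Ccr2 differed by 0.09. C1qa and C1qb, complement genes of mature macrophages, were below the lower quartile of every array in both groups, and are named for that after their values were seen. Neutrophil markers summed to 441 to 1741 in L-GMPs and 1113 to 4532 in GMPs, and 3 of 10 fell. These were S100a8, Cxcr2 and Csf3r, with differences of -3.82, -1.37 and -1.16, while the brightest, S100a9, was at -2.70 (limma adjusted p = 0.0695) and passed without L-GMP A or GMP C. Not all neutrophil markers ran lower: 2 of the 10 changes were positive, up to 1.23. None was called higher, and 1 was higher at an unadjusted p under 0.05 in limma. Primary granule markers of GMPs summed to 22678 to 28060 in L-GMPs and 36224 to 40107 in GMPs, and 4 of 6 fell. Fcnb (-2.32), Elane and Prtn3 (-0.84) fell most, and the brightest, the myeloperoxidase gene Mpo, was at -0.39 (limma adjusted p = 0.0195), a call lost without L-GMP A, GMP B or GMP C. Dendritic cell markers summed to 1220 to 2662 in L-GMPs and 556 to 654 in GMPs, and 1 of 11, Flt3, rose, by 3.29. Flt3 was also the brightest of them, averaging 10.16 in L-GMPs and 6.88 in GMPs, so the sums mostly follow this gene. The median change of the 11 was 0.07. Their part in the lysosomal changes was not tested, and in sorted bulk samples fewer cells of a type cannot be told apart from less RNA per cell.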

How the data were processed

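Per the labels' protocols, Trizol and then a clean-up column gave the total RNA. The deposited intensities were made by the authors with RMA, per the submitters' processing notes (version not given in the sources used). They lie on a linear scale, read from their range of 3.54 to 29746.73, and log2 was taken of them here. The labelling assay in the labels is one for whole transcripts, but the probe sets are of an array design with probes near the 3' end, which was not settled.

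Of 45101 probe sets, 64 controls were left out, and 34945 of the rest had a single gene symbol in the platform annotation, 932 several and 9160 none. Symbols were checked through Entrez identifiers against RefSeq (34741 matched). The brightest probe set by mean over all arrays stood for each of 18193 genes; 0 columns were unused. Groups came from the sample titles. Differences were tested with limma 3.58.1 in R 4.3.3 (lmFit and eBayes on log2 values, both groups, no covariates), with Benjamini-Hochberg adjustment over all genes at 0.05. Intervals are 95% intervals of that fit. On simulated data made from these 18193 genes, it recovered 80% of 100 genes shifted by 1 log2 unit and 99% of 100 shifted by 2, with 9 false calls.

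The 45 genes, the pathway lists and the cell marker lists were chosen with earlier results of these data known. The text names all 45 genes; from each pathway list up to 3 called genes with the largest change; and from marker lists up to 3 called genes and the brightest gene. Others are marked as chosen after their values were seen. List genes without a single-symbol probe set were not analysed here. Alternatives were median centring, quantile normalization, a filter on dim genes (mean in the lowest 25%), the mean of all probe sets, each probe set tested separately, a prior that is robust and trended, the replicate letter as a block, and leaving out each array.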

Additional observations from a re-analysis of the deposited data

Results flagged for a closer look

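Single arrays that stood apart from the 3 others of their group were looked for in 180 groups of 4 arrays, by the gap to the nearest array over the range of the group, and 7 were found. Chance flags about 1 in 20 such groups. Of the 7, 3 were among the 90 groups of the lysosomal and phagocyte genes, and all 3 were the lowest value of GMP A. Cd68 was at 6.70 on GMP A and at 6.87 to 6.89 on the other GMP arrays. Mpeg1 was at 8.78 there, against 9.21 to 9.26. Ctsk was at 3.28, against 3.585 to 3.61 on the others, near the dim end of the arrays. Without GMP A, Cd68 still rose by 2.44 (limma adjusted p = 8.81e-05) and Mpeg1 by 1.81 (adjusted p = 0.000749), and the difference of Ctsk was -0.18 (adjusted p = 0.278).

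The other 4 were cell type markers. The neutrophil receptor gene Cxcr2 was lowest on GMP C, at 6.39 against 6.67 to 6.70. The eosinophil granule gene Prg2 was highest on L-GMP C, at 6.37 against 4.44 to 4.72. The gene of von Willebrand factor, Vwf, was highest on L-GMP B, at 4.78 against 4.295 to 4.32. The T cell gene Cd8a was lowest on GMP B, at 5.59 against 5.80 to 5.83.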

How the results depend on the processing

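Of the 19 called genes, all 19 kept their direction under the 16 alternatives and 13 also kept the call: Cd68, Gpnmb, Mpeg1, Ctsa, Ctsh, Ctss, Lamp1, Glb1, Sgsh, Man2b1, Mitf, Lyz1 and Lyz2. Ctsb, Ctsz, Gla, Gusb, Galns and Naglu lost it under some, Ctsb only without L-GMP B and GMP D together (adjusted p = 0.0569). On removing single arrays, the highest adjusted p was 0.117 for Ctsz (without L-GMP C), 0.0853 for Gla (GMP C), 0.0915 for Gusb (L-GMP A), 0.077 for Galns (GMP C) and 0.0848 for Naglu (GMP C). Of the 26 uncalled genes, 8 passed under some. The count of genes higher was 17, and 12 to 18 on leaving out 1 array; it was 22 with centring on the array median and 13 with the replicate block. The count of genes lower was 2, and 3 with quantile normalization. The median change of 0.32 was 0.46 with centring, 0.37 with the dim filter, 0.25 with the mean of probe sets and 0.30 to 0.37 on leaving out 1 array. Centring moved the median of all genes to 0.15, and 70.1% of called genes were then higher, against 49.5% with quantile normalization and 39.7% in the reported fit. Without L-GMP B and GMP D together, an alternative chosen after seeing the data, 13 genes were higher and the median was 0.38. The cause of these differences was not tested.

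Over all genes, 2193 were called, and 1411 without GMP B, 1425 without GMP D and 1470 without GMP C, where fewer arrays enter; 870 were higher, and 2161 with centring, 543 without GMP B, 514 without GMP C and 550 without GMP D; 1323 were lower, and 868 without GMP B and 875 without GMP D. Differences near 0 changed sign: Ctsk 0.043, Ids 0.0054 and Neu1 0.13 with centring; Npc1 -0.026, Hexa -0.025 and Neu1 0.055 with quantile normalization; Npc2 -0.052 and Neu1 0.034 with the mean of probe sets; Npc1 -0.034 and Hexa -0.020 without both arrays. Nfatc1, at 0.38 in the reported fit (adjusted p = 0.0565), was at -0.077 with the mean of probe sets. On leaving out 1 array, Npc1 ran from -0.035 to 0.069, Hexa from -0.029 to 0.032, Ids from -0.35 to 0.028 and Neu1 from -0.24 to 0.20. Whether the replicate letters pair the samples is not known here. Deviations of same-lettered arrays correlated at -0.05, -0.01, -0.07 and 0.11 for A to D, and only D correlated best with its own letter. Such correlations cannot settle the pairing, because paired samples need not have correlated deviations.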

Other observations

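No marker in the 4 lists of other cells below was called higher in L-GMPs, and most of these markers did not pass the test. Of 6 megakaryocyte and platelet markers, 3 fell (Pf4 by 5.10, Vwf by 1.80 and Itga2b by 1.68 on the log2 scale), with summed linear intensities of 175 to 244 in L-GMPs and 455 to 1958 in GMPs. Of 5 erythroid markers, 1 fell (Car1 by 1.80 on the log2 scale, limma adjusted p = 0.0376, a call lost on removing any L-GMP array, GMP C or GMP D) and the brightest, Tfrc, was at -0.39 (adjusted p = 0.0676), with sums of 949 to 1240 in L-GMPs and 1300.07 to 1618 in GMPs. Of 7 osteoclast markers, 1 fell, Acp5, which the list of other hydrolases also holds, the brightest, Nfatc1, was at 0.38 (limma adjusted p = 0.0565; passed without L-GMP A), and the sums were 318 to 392 in L-GMPs and 346 to 404 in GMPs. None of 7 lymphoid markers passed the test in limma (1 at an unadjusted p under 0.05), Cd8a, the brightest, was at 0.22, and the sums were 162 to 176 in L-GMPs and 151 to 159 in GMPs.

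As a sign of RNA quality, the Gapdh control at the 3' end exceeded that at the 5' end, on the log2 scale, by 1.24 to 1.55 in L-GMPs, and 1.46 to 1.76 on GMP A to C and 2.74 on GMP D.

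Among the 26 uncalled genes, 5 had adjusted p-values between 0.05 and 0.08: Cln3, Tfeb, Gaa, Tpp1 and Fuca1. The L-GMP and GMP arrays of 7 of the 26 did not overlap. Among the 19 called genes, the groups of all 19 did not overlap, which selection by the test on the same arrays favours. Over all genes tested, called or not, 8.53% had L-GMPs entirely above GMPs and 9.71% entirely below.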
